A study of Mus musculus with 16 samples.

Results

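The genes described here encode the subunits of the proteasome that carry a Psma, Psmb, Psmc or Psmd symbol, together with a few assembly chaperones that share the Psmd name. They were chosen by symbol alone, as every gene symbol made of Psm, a letter from a to d and a number, without the inducible subunits Psmb8 and Psmb9. This gave 37 of 31053 gene identifiers, 17 of the core particle and 20 of the regulatory particle. The rule uses no measured value, although it was set with earlier results of these data known. The data are single-cell transcriptomes of mouse organoids, epithelial cultures that grow in a gel, derived from colon tumours of the AOM/DSS model, which combines the carcinogen azoxymethane with the irritant dextran sodium sulfate. The knockout organoids carry the labels plus TAM and KMT9ko/ko, and the control organoids carry minus TAM and KMT9wt/wt; both were at passage 14, and the names of both count tables give day 5. TAM is not written out in the labels, which name neither a promoter nor the number of organoid lines or animals behind a group. Each group has 8 records but 1 count matrix and is treated as 1 library, so no difference has a replicate check and no p-value is given. KMT9 is a histone methyltransferase made of the proteins of N6amt1 and Trmt112.

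The proteasome degrades proteins that carry ubiquitin chains. Its core particle is a barrel of stacked rings, with alpha subunits as the outer gates and beta subunits as the inner rings that hold the peptidase sites. The regulatory particle caps the barrel. A ring of ATPases, encoded by the Psmc genes, unfolds the substrate, and the non-ATPase subunits, encoded by most Psmd genes, bind and remove ubiquitin. Dedicated chaperones build both particles, and dividing intestinal epithelium makes and degrades proteins at a high rate.

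After filtering, the knockout library held 1481 cells with 37301715 UMIs and the control library 2629 cells with 68666384 UMIs. A UMI tags 1 captured transcript molecule. The median cell had 24184 UMIs in the knockout library and 24604 in the control library. Levels are CPM, counts of a gene per 1000000 UMIs of its library, and a ratio is knockout over control on the log2 scale. All intervals are exact 95% intervals of the counting error and of nothing else. N6amt1, the targeted gene, stood at 6.11 CPM in the knockout library and 34.0 CPM in the control library (log2 ratio -2.48), in the direction of the labels, although a tag at the 3′ end does not by itself show the state of a deleted exon. Epithelial markers summed to 13626 CPM in the knockout library and 12031 CPM in the control library, and all 7 were measured. Immune markers summed to 15.8 and 11.96 CPM, fibroblast markers to 0.27 and 0.12 CPM and endothelial markers to 20.1 and 10.5 CPM, in the knockout and the control library in turn. Cd3e, Col1a2, Col3a1, Dcn and Kdr had no UMI in either. S phase markers summed to 573 CPM in the knockout library and 1100 CPM in the control library, G2 and M phase markers to 537 and 808 CPM, and colonocyte markers to 483 and 184 CPM. The matrices share 498 cell barcodes, which belonged to 325 kept knockout cells and 166 kept control cells. Without those cells colonocyte markers summed to 147 CPM in the knockout library and 171 CPM in the control library, so the direction turned, while S phase markers summed to 552 and 1070 CPM. Several of the results that follow are also given without those cells.

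Proteasome transcripts were abundant and close to equal in the libraries. The 37 genes had 293580 UMIs in the knockout library and 571965 in the control library, which is 0.787% and 0.833% of all UMIs. Their summed level was 7870 CPM (interval 7842 to 7899) in knockout cells and 8330 CPM (8308 to 8351) in control cells, a log2 ratio of -0.08 (-0.09 to -0.08). Every kept cell had at least 1 UMI of a proteasome gene, and the median cell of either library had UMIs of 33 of them. The median cell devoted 0.774% of its UMIs to these genes in the knockout library and 0.828% in the control library. The cells of the libraries overlapped: the range that leaves out the lowest and highest cells (5% at each end) was 0.449 to 1.02% in the knockout library and 0.561 to 1.002% in the control library.

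Of the 37 genes, 35 reached 10 CPM in at least 1 library and are called measured. Psma8, an alpha subunit known from testis, had no UMI in either library. Psmb11, a beta subunit known from the thymus, had 1 UMI in each library. Neither tissue was sampled here, and both genes are left out of the counts that follow.

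**Figure D1:**
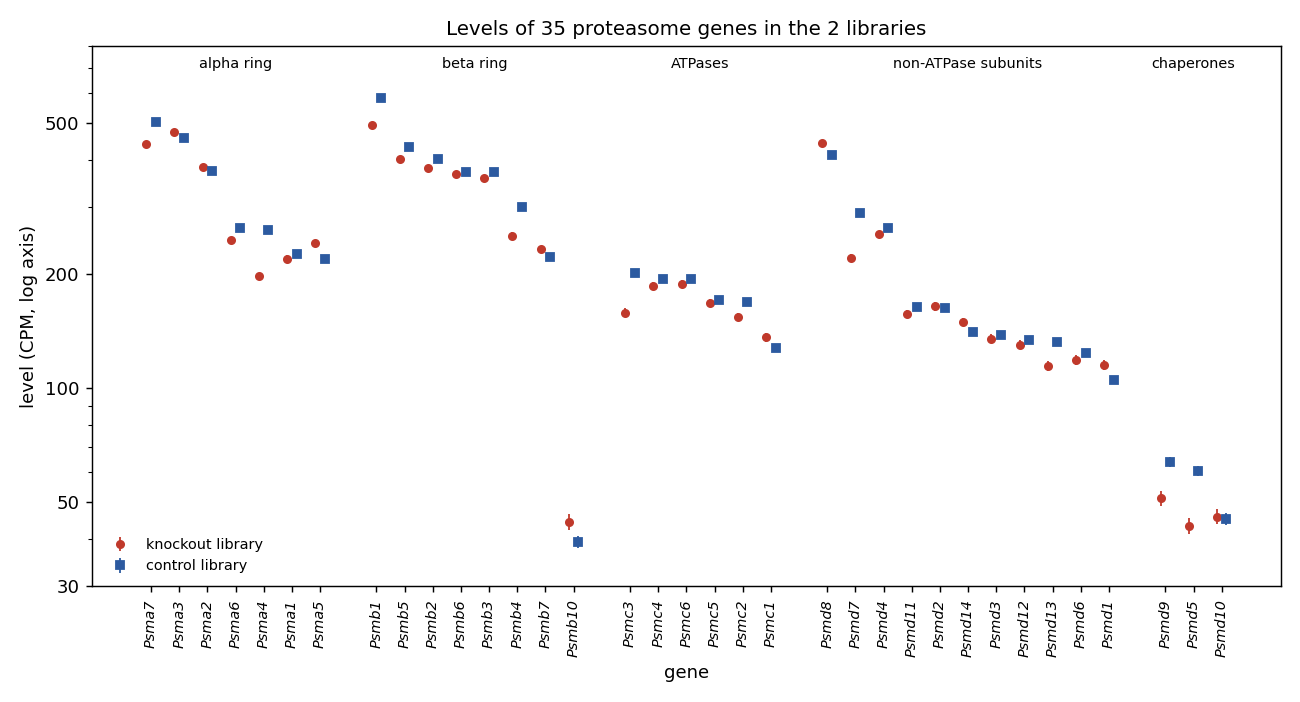
Level of each of the 35 measured proteasome genes in CPM (log axis), grouped by subunit class, with the knockout library in red circles and the control library in blue squares. Bars are 95% counting intervals and are often smaller than the symbol. Core genes other than Psmb10 lie between 197 and 584 CPM, and most regulatory genes lie below the core genes.

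Core particle genes stood above regulatory particle genes in both libraries. The median core gene had 359 CPM in the knockout library and 371 CPM in the control library, and the median regulatory gene 152 CPM in each, so the core median was 2.37 times and 2.44 times the regulatory median. Because a 3′ tag counts a molecule once whatever its length, CPM follows molecule number; per kilobase of the longest annotated transcript the same quotients were 2.83 in the knockout library and 3.30 in the control library. Without Psmb10 and the assembly chaperones they were 2.31 and 2.26 on the CPM scale. On that scale 14 of the 15 measured core genes exceeded the highest ATPase gene in either library, with Psmb10 the exception. Per kilobase, every measured core gene but Psmb7 and Psmb10 exceeded the highest ATPase gene. In each library 1 regulatory gene lay above the core median in CPM, Psmd8, which encodes a lid subunit. Across the 35 genes the log2 levels of the libraries correlated with a Pearson r of 0.985 and a Spearman rho of 0.982, as a description over genes that share libraries and are not independent replicates.

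Among the 7 measured alpha genes, Psma3 was the highest in the knockout library in CPM, at 473 CPM against 457 CPM in the control library, and Psma7 the highest in the control library, at 441 CPM in knockout and 504 CPM in control cells. Psma4 had the lowest level of the ring in the knockout library, 197 CPM against 262 CPM in the control library. Per kilobase Psma7 was the highest of the ring in both, at 291 and 333 CPM per kilobase in knockout and control cells. Among the 8 measured beta genes, Psmb1, a structural subunit, was the highest in CPM in both libraries, with 494 CPM in knockout and 584 CPM in control cells.

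The constitutive catalytic genes had log2 ratios between -0.11 and 0.07. Psmb5, which encodes the chymotrypsin-like site, had 402 CPM in knockout cells and 433 CPM in control cells. Psmb6, the caspase-like site, had 367 and 372 CPM. Psmb7, the trypsin-like site, had 233 and 222 CPM. Psmb10 encodes the inducible form of the trypsin-like site that takes the place of the Psmb7 protein in immunoproteasomes. It had 44.5 CPM (42.4 to 46.7) in knockout cells and 39.3 CPM (37.9 to 40.8) in control cells, and on both scales it lay below Psmb7, at 34.0 CPM per kilobase against 81.7 for Psmb7 in knockout cells and 30.004 against 77.8 in control cells. The other inducible subunits were lower still, with Psmb8 at 4.32 CPM in knockout and 3.87 CPM in control cells and Psmb9 at 6.57 and 6.63 CPM, under the 10 CPM needed for a comparison.

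Levels of the 6 ATPase genes spanned a narrower range on the CPM scale than those of the alpha, beta or non-ATPase genes. Their extremes in the knockout library were Psmc6 at 188 CPM, against 194 CPM in the control library, and Psmc1 at 136 CPM, against 128 CPM. Psmc3 was the highest ATPase gene of the control library at 201 CPM and had 158 CPM in the knockout library. Among the 11 non-ATPase genes Psmd8 was the highest in CPM, with 443 CPM in knockout and 413 CPM in control cells, and Psmd13 was the lowest in the knockout library with 114.5 CPM, against 133 CPM in the control library. Psmd1, a large scaffold subunit, was the lowest in the control library, with 115.2 CPM in knockout and 105 CPM in control cells. The assembly chaperone genes Psmd5, Psmd9 and Psmd10 had 43.3 to 51.3 CPM in knockout cells and 45.2 to 63.9 CPM in control cells, below every subunit gene but Psmb10.

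No proteasome gene differed between the libraries by 1.5-fold or more. Of the 35 genes 0 were lower in the knockout library by that size, where 10.7% of the 7910 measured genes were, and 0 were higher, where 8.12% were. At 1.2-fold 5 were lower, against 31.2% of measured genes, and 0 were higher, against 21.5%. The other 30, or 85.7%, lay within 1.2-fold, as did 47.3% of measured genes. Among the 1793 genes with 100 or more CPM, 30.3% were lower and 16.8% were higher by 1.2-fold. The log2 ratios of the proteasome genes ran from -0.48 to 0.18, with an interquartile range of 0.19, against 0.55 over all measured genes and 0.46 over genes with 100 or more CPM. Their median was -0.05, beside -0.06 over all measured genes; relative to genes of like transcript length it was 0.09 and relative to genes of like CPM 0.04, so its sign depends on the genes it is set against. Below 0 lay 24 of the 35 genes, beside 56.4% of measured genes.

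**Figure D2:**
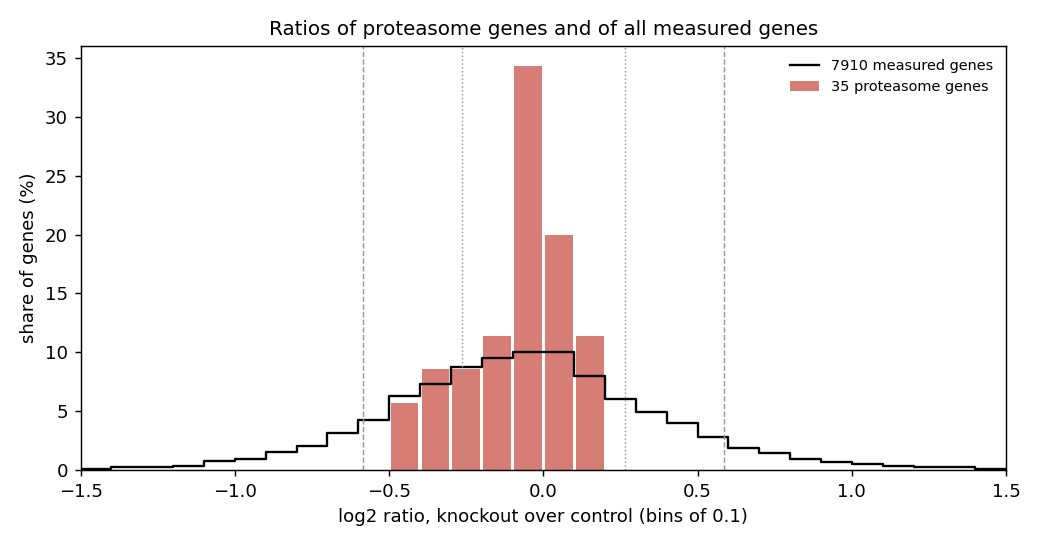
Share of genes (%) by log2 ratio, knockout over control, in bins of 0.1, for the 35 measured proteasome genes (red bars) and for all 7910 measured genes (black line). Dotted lines mark 1.2-fold and dashed lines 1.5-fold. The bin from -0.1 to 0 holds 12 of the proteasome genes, and none lies beyond -0.5 or 0.2.

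Core and regulatory genes had nearly the same ratio. Core genes summed to 4735 CPM in knockout and 5032 CPM in control cells (log2 ratio of the sums -0.09, interval -0.10 to -0.08), and regulatory genes to 3136 and 3297 CPM (-0.07, -0.08 to -0.06). The median gene ratio was -0.05 in each; relative to genes of like CPM it was -0.02 for core and 0.07 for regulatory genes. By class, the sums in knockout and control cells were 2201 and 2308 CPM for the alpha ring, 2534 and 2725 CPM for the beta ring, 991 and 1058 CPM for the ATPases and 2004 and 2070 CPM for the non-ATPase subunits. The median log2 ratios of these classes lay between -0.06 and -0.04. The 3 assembly chaperones stood apart in value, with a median of -0.32 and sums of 140.4 and 169.5 CPM, which is a description of 3 genes.

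The 5 genes that were lower by 1.2-fold or more came from several classes. Psmd5 (chr2:34849734-34874968, minus strand, GRCm38, as for the positions that follow) encodes a chaperone of the regulatory particle base. It had 1616 UMIs and 43.3 CPM in knockout cells, against 4153 UMIs and 60.5 CPM in control cells, a log2 ratio of -0.48 (-0.57 to -0.40). Psmd9 (chr5:123169413-123250131, plus strand), another base chaperone, had 51.3 CPM in knockout and 63.9 CPM in control cells (-0.32, -0.40 to -0.24). These intervals hold counting error alone, and 31.2% of all measured genes were lower by 1.2-fold or more.

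Psma4, an alpha ring gene, had 197 CPM in knockout cells and 262 CPM in control cells (log2 ratio -0.41, -0.45 to -0.37). The gene lies at chr9:54950790-54958030 on the plus strand. The other alpha genes had ratios from -0.19 (Psma7) to 0.14 (Psma5), so Psma4 was the lowest of its ring. Psmd7 (chr8:107580381-107588464, minus strand), whose protein pairs with the deubiquitinase encoded by Psmd14, had 221 CPM in knockout cells and 289.6 CPM in control cells (-0.39, -0.43 to -0.35), while Psmd14 itself had 149.6 and 140.5 CPM (0.09, 0.04 to 0.14). Psmc3 (chr2:91054009-91066369, plus strand), an ATPase gene, had 158 CPM in knockout cells and 201.4 CPM in control cells (-0.35, -0.39 to -0.30), and the other ATPase genes had ratios from -0.13 (Psmc2) to 0.10 (Psmc1). Annotated genes on the opposite strand overlap Psma4 (AY074887), Psmc3 (Slc39a13), Psmd5 (Cutal) and Psmd9 (Hpd among them). No source used here states the strand setting of the counting, and the part of those genes in the counts was not tested. Psmd7 overlaps no other annotated gene.

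Just inside 1.2-fold lay Psmb4 (253 CPM in knockout and 302 CPM in control cells, log2 ratio -0.25) and Psmb1 (-0.24), both structural beta genes. With trimmed mean scaling both passed 1.2-fold and the count became 7 lower and 0 higher, beside 33.8% and 19.9% of measured genes. At the other end were Psmb10 (0.18, 0.09 to 0.27), Psma5 (0.14), Psmd1 (0.13), Psmd8 (0.10) and Psmc1 (0.10). Set against genes of like length, the split was 1 lower and 5 higher, beside 24.6% and 24.5% of measured genes, and relative to genes of like CPM 3 lower and 0 higher, beside 25.9% and 25.1%. Without cells whose barcode occurs in both matrices it stayed at 5 lower, the same genes, and 0 higher, beside 33.6% and 18.1% of measured genes.

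**Figure D3:**
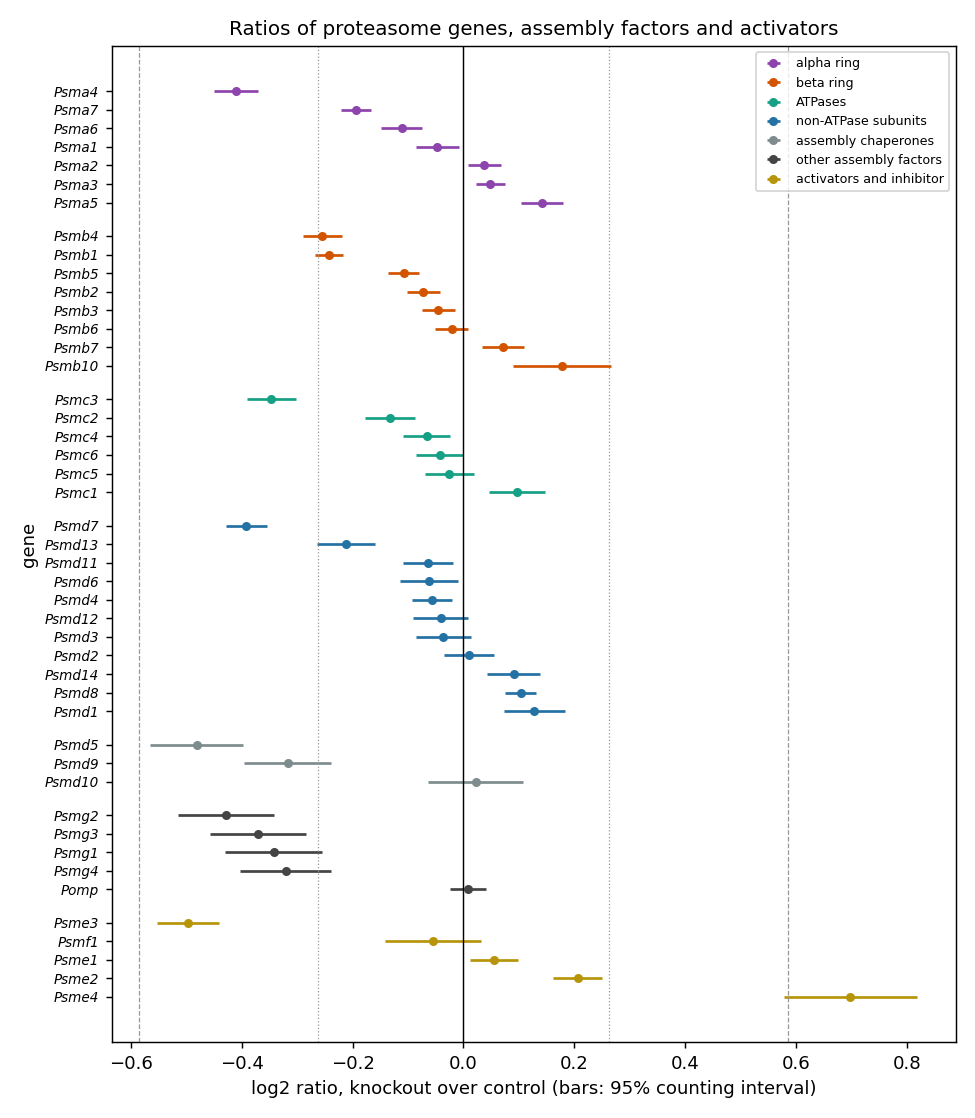
Log2 ratio, knockout over control, of each measured proteasome gene, of assembly factors outside the naming rule and of proteasome activators and the inhibitor, with 95% counting intervals; dotted lines mark 1.2-fold and dashed lines 1.5-fold. All points except Psme4 lie inside 1.5-fold. The 4 Psmg genes lie to the left of the lower 1.2-fold line, as do Psmd5, Psmd9, Psma4, Psmd7, Psmc3 and Psme3. The assembly factors Psmd10 (0.02) and Pomp (0.01) do not.

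These ratios depended on how the control cells were weighted. Whether the makeup of the libraries accounts for them was not tested. When control cells were weighted to the shares that 9 cell clusters have in the knockout library, 0 of the 35 genes were lower by 1.2-fold and 1 was higher, Psmb10 (log2 ratio 0.30). On that weighting the log2 ratio was -0.13 for Psmd5, -0.22 for Psma4, -0.21 for Psmd7, -0.21 for Psmc3 and -0.26 for Psmd9, and over all measured genes 16.02% were lower and 16.5% higher by 1.2-fold. The log2 ratio of the sum was -0.07 in place of -0.08, and the median gene ratio was -0.04 for core and -0.09 for regulatory genes. Over all 35 genes the weighted median was -0.05, beside -0.02 over all measured genes. The weights lean on clusters with few control cells, among them the colonocyte-like cluster with 57.

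Genes that help build or drive the proteasome, taken from lists of known factors, are given next. Of 5 assembly factors outside the naming rule, 4 were lower by 1.2-fold and 0 higher, beside 31.2% and 21.5% of measured genes. The 4 were Psmg1 with 41.1 CPM in knockout and 52.1 CPM in control cells (log2 ratio -0.34), Psmg2 with 40.4 and 54.4 CPM (-0.43), Psmg3 with 41.7 and 53.9 CPM (-0.37) and Psmg4 with 46.9 and 58.6 CPM (-0.32). Their proteins pair to assemble the alpha ring. Pomp, which the beta ring needs for its maturation, had 326 and 324 CPM (0.01). With control cells weighted to the cluster shares of the knockout library, the Psmg ratios lay between -0.15 and -0.04. Within clusters described further on, the Psmg ratios lay between -0.38 (Psmg4) and -0.12 (Psmg1) in the cycling-like cluster. In the cluster led by Hamp they lay between -0.33 (Psmg1) and -0.13 (Psmg4). The intervals left out 0 for Psmg2 and Psmg4 in the former and for Psmg1 in the latter. In the cluster led by Cadps, Psmg1, Psmg2 and Psmg4 had -0.13, -0.12 and -0.10, with intervals that hold 0. There Psmg3 had 0.25 (0.02 to 0.49).

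Among activators, Psme4, which caps the core particle in the nucleus, had 28.4 CPM in knockout cells and 17.5 CPM in control cells (log2 ratio 0.70, 0.58 to 0.82). It was the sole gene of its list of 5 past 1.5-fold, a size by which 8.12% of measured genes were higher and 10.7% lower. Psme3, another nuclear activator, had 95.9 CPM in knockout and 135 CPM in control cells (-0.50). Psme1 and Psme2, which form the activator induced with immunoproteasomes, had ratios of 0.06 and 0.21. After weighting, Psme4 stood at 0.43 and Psme3 at -0.31. Of 10 measured genes of other subunits and associated proteins, 2 were lower by 1.2-fold (Uchl5, a deubiquitinase of the regulatory particle, -0.28, and Ubqln4, a shuttle for ubiquitinated proteins, -0.51) and 1 was higher (AI314180, 0.35). Over all measured genes these shares were 31.2% and 21.5%. Sem1, a small lid subunit, had 555 CPM in knockout and 479.9 CPM in control cells (0.21, and 0.25 after weighting). The ubiquitin receptor gene Adrm1 had 196 and 182 CPM (0.11), but its ratio was 0.06 without shared barcodes and -0.04 after weighting. Usp14, a deubiquitinase that binds the proteasome, had a ratio of -0.19.

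Nfe2l1, the transcription factor known to raise proteasome genes when proteasome activity is short, had 37.3 CPM in knockout and 37.7 CPM in control cells (log2 ratio -0.02). Its relative Nfe2l2 had 176 and 201 CPM (-0.19, but 0.04 after weighting), and Ngly1 and Ddi2, which process the Nfe2l1 protein, had ratios of 0.39 and -0.05. Stat3, a factor linked to proteasome gene expression in other cells, had 54.8 and 32.7 CPM (0.74, and 0.50 after weighting). Of 6 genes of ubiquitin supply, 0 were lower and 1 higher by 1.2-fold (Uba6, 0.41), beside 31.2% and 21.5% of measured genes. Ubb had a ratio of 0.07, but -0.06 after weighting. In the p97 list of 4 genes, 1 was lower by 1.2-fold (Nsfl1c, -0.30) and 0 were higher. Vcp, the segregase of that list that extracts substrates, had -0.06. Trmt112, the KMT9 gene beside N6amt1, had 165 CPM in knockout and 209 CPM in control cells (-0.34, and -0.10 after weighting). For scale, 80 measured cytosolic ribosomal protein genes had a median ratio of 0.00 with 2 lower and 13 higher by 1.2-fold, 71 measured oxidative phosphorylation genes a median of -0.23 with 32 lower and 2 higher, and 7 genes of the cytosolic chaperonin, another large ring complex, a median of -0.16 with 3 lower and 0 higher. These counts too stand beside 31.2% lower and 21.5% higher over all measured genes.

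Promoters were read next, since the Nfe2l1 family, the NF-Y factors and ETS factors are known to act at proteasome or housekeeping promoters through short motifs. RefSeq (GRCm38.p6) gave a window of 250 bases before to 50 after the start for 30 of the 37 genes and for 27025 genes in all, 6277 of them measured here. The motifs TGACNNNGC (the core of the antioxidant response element), CCAAT and CCGGAAG (an ETS core) were searched separately on both strands, so matches could overlap, and a gene with more than 1 window was counted once. TGACNNNGC was in 5 of 30 proteasome promoters (16.7%), against 14.0% of all promoters and 17.8% of those of measured genes, in Psmb5, Psmb6, Psmc6, Psmd12 and Psmd9. CCAAT was in 12 (40.0%), against 41.1% and 43.2%; on the gene's own strand it was also in 12, against 23.7% and 25.6%. CCGGAAG was in 10 (33.3%), against 9.93% and 23.6%, and on the gene's own strand in 5 (16.7%), against 5.395% and 13.8%. A match describes letters and does not show a bound site. Among the 30 genes with a window, all with CCGGAAG but Psma6 belong to the regulatory particle. No window was found for the core genes Psma8, Psmb1, Psmb2 and Psmb7 or for the regulatory genes Psmc3, Psmd3 and Psmd7. Neither particle was therefore searched in full.

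The windows of 5 genes are shown, in lower case from 5′ to 3′ along the gene with matched motifs in capitals. Psmb5 and Psmb6 are the catalytic genes with the antioxidant response core on the gene's strand, Psma3 holds CCAAT as written and in reverse complement, Psmd6 holds the ETS core, and Psma4, the core gene with the lowest ratio, holds none of these letters.
Psmb5 (chr14:54617946-54618245, minus strand): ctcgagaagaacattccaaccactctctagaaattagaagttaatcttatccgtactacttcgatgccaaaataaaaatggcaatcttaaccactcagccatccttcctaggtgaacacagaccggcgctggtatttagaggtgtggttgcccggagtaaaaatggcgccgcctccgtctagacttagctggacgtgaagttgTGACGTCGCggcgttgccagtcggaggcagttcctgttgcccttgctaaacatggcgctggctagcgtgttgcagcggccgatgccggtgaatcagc
Psmb6 (chr11:70525107-70525406, plus strand): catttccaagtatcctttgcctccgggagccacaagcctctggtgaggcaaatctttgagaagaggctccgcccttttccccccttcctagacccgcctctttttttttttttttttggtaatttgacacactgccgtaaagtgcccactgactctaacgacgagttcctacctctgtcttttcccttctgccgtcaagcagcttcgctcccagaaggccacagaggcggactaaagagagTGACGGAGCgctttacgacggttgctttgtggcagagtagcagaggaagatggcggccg
Psma3 (chr12:70974373-70974672, plus strand): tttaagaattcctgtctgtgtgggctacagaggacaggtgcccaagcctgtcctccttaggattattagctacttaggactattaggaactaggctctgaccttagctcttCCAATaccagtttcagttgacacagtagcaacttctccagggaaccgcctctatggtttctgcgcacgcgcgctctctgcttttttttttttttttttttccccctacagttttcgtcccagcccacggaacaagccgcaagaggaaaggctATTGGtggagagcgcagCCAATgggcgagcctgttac
Psmd6 (chr14:14120896-14121195, minus strand): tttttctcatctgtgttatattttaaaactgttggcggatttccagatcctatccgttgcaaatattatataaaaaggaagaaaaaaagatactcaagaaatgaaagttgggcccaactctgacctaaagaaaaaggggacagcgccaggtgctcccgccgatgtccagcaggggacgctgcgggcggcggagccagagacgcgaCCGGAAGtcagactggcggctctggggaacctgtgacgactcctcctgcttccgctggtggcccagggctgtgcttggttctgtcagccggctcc
Psma4 (chr9:54950609-54950908, plus strand): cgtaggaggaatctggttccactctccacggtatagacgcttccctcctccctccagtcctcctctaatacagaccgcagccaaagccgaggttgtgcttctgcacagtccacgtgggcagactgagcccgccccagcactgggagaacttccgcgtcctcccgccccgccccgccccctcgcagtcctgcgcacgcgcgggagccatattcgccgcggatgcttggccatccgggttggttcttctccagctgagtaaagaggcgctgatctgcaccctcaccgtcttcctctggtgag

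The ratios of these genes were -0.11 for Psmb5, -0.02 for Psmb6, 0.05 for Psma3, -0.06 for Psmd6 and -0.41 for Psma4 on the log2 scale. The matches began 47 bases before the start in Psmb5, 9 before it in Psmb6 and 45 before it in Psmd6, and 139 bases before and 14 and 31 after it in Psma3. Among the genes lower by 1.2-fold, windows were found for Psma4, Psmd5 and Psmd9; none holds CCAAT or CCGGAAG, and Psmd9 holds TGACNNNGC.

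Cells were grouped into 9 clusters made without the proteasome genes among the variable genes. Cluster 2 was cycling-like (39 S, G2 and M phase markers at 2-fold or more above the other cells). Cluster 4 was colonocyte-like by the naming rule (7 of 12 colonocyte markers at that size), although 5 of 7 squamous markers reached that size too. The others stay unnamed and go by their leading genes. The knockout library had 126 cycling-like and 464 colonocyte-like cells and the control library 464 and 57. Without the cells whose barcode occurs in both matrices, the colonocyte markers in cluster 4 summed to 301 CPM in knockout cells and 536 CPM in control cells, in place of 1213 and 624 CPM. In cluster 0 they then summed to 686 CPM in knockout and 335 CPM in control cells. When the proteasome genes were kept for clustering, 28 knockout and 4 control cells fell in a cluster of their own kind. Of these, 23 knockout and 3 control cells had a shared barcode. That cluster had 12769.5 CPM of these markers in knockout cells and 3387 CPM in control cells. Cluster 4 of that clustering (413 knockout and 59 control cells) had 361 and 377 CPM. The name colonocyte-like is thus a loose label. Clusters 1 (led by Cadps and Nppb; 397 and 246 cells), 2 and 5 (led by Hamp and Dnaja4; 128 and 315 cells) had 100 or more cells in each library and are the ones compared between them. Without the shared barcodes cluster 2 keeps 88 knockout and 387 control cells, fewer than 100 in the knockout library.

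Within these clusters the summed level was 8259 CPM in knockout and 8354 CPM in control cells of cluster 1 (log2 ratio -0.02, -0.03 to -0.0010), 8218 and 8577 CPM in the cycling-like cluster 2 (-0.06, -0.08 to -0.04, and -0.07 without shared barcodes) and 8064 and 8110 CPM in cluster 5 (-0.01, -0.03 to 0.01). In cluster 2 core genes summed to 4988 CPM in knockout and 5078 CPM in control cells (-0.03) and regulatory genes to 3230 and 3499.6 CPM (-0.12). In the other compared clusters both particles had ratios of the sum between -0.03 and 0.00. The clusters with too few cells in 1 library are given by value alone. Cluster 0 (23 knockout and 777 control cells) had sums of 7145 CPM in knockout and 8251 CPM in control cells (log2 ratio -0.21). In the colonocyte-like cluster 4 the sums were 7685 and 8401 CPM (-0.13), and in cluster 6 (213 and 97 cells) they were 7271 and 7678 CPM (-0.08). Without shared barcodes, which 86 of the knockout cells of cluster 6 carry, its sums were 7049.9 and 7807 CPM (-0.15). Cluster 3 (led by Ang4 and Tff3; 36 and 496 cells) had 8666 and 8609 CPM (0.01). The shallow cluster 8 (23 and 22 cells, with a median of 6098 and 5833 UMIs) had 9354 and 9868 CPM (-0.08, -0.18 to 0.03), the highest sums of the 9 clusters.

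In cluster 1, 0 of the 35 genes were lower by 1.2-fold, beside 14.4% of the genes measured there, and 1 was higher, beside 22.5%. In cluster 2, 5 were lower, beside 37.4%, and 2 higher, beside 19.5%; 1 was lower by 1.5-fold, beside 14.6%. In cluster 5, 3 were lower, beside 29.4%, and 0 higher, beside 19% of genes. Psmd5 had 45.5 CPM in knockout and 74.5 CPM in control cells of cluster 2 (log2 ratio -0.71, -0.94 to -0.49), but 47.5 and 46.2 CPM in cluster 1 (0.04) and 42.0 and 41.7 CPM in cluster 5 (0.01, -0.30 to 0.32; -0.28, -0.63 to 0.06, without shared barcodes). Psmd7 had 233 and 325 CPM in cluster 2 (-0.48), 213 and 225 CPM in cluster 1 (-0.08), and 240.0 and 274 CPM in cluster 5 (-0.19, -0.32 to -0.07). Psma4 had 217 and 285 CPM in cluster 2 (-0.40), 211 and 221 CPM in cluster 1 (-0.07), and 218 and 238 CPM in cluster 5 (-0.13, -0.26 to -0.0013). Psmc3 had 184 and 243 CPM in cluster 2 (-0.40), and 170.1 and 181 CPM in cluster 1 (-0.09). Without shared barcodes the ratios in cluster 2 were -0.76 for Psmd5, -0.49 for Psmd7, -0.40 for Psma4 and -0.46 for Psmc3. The difference between clusters was not tested. S phase markers summed to 1736 CPM in knockout and 2323 CPM in control cells of cluster 2, so cycling-like cells were not matched for phase; the part of this in the ratios was not tested.

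Psmb10 went the other way, with 34.7 CPM in knockout and 23.7 CPM in control cells of cluster 2 (log2 ratio 0.55, 0.27 to 0.83) and 50.9 and 37.4 CPM in cluster 1 (0.44, 0.22 to 0.67). In cluster 5 it had 40.4 and 36.4 CPM (0.15, -0.17 to 0.46), an interval that holds 0. Its constitutive counterpart Psmb7 had a ratio of 0.07 over all kept cells. Psma5 was the other gene higher by 1.2-fold in cluster 2, with 259 and 209.7 CPM (0.30). In cluster 5 the lower genes were Psmd9 (43.0 CPM in knockout and 57.6 CPM in control cells, -0.42), Psmc3 (-0.28) and Psmd13 (-0.27), and this set overlaps that of cluster 2 in Psmc3 and Psmd9.

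**Figure D4:**
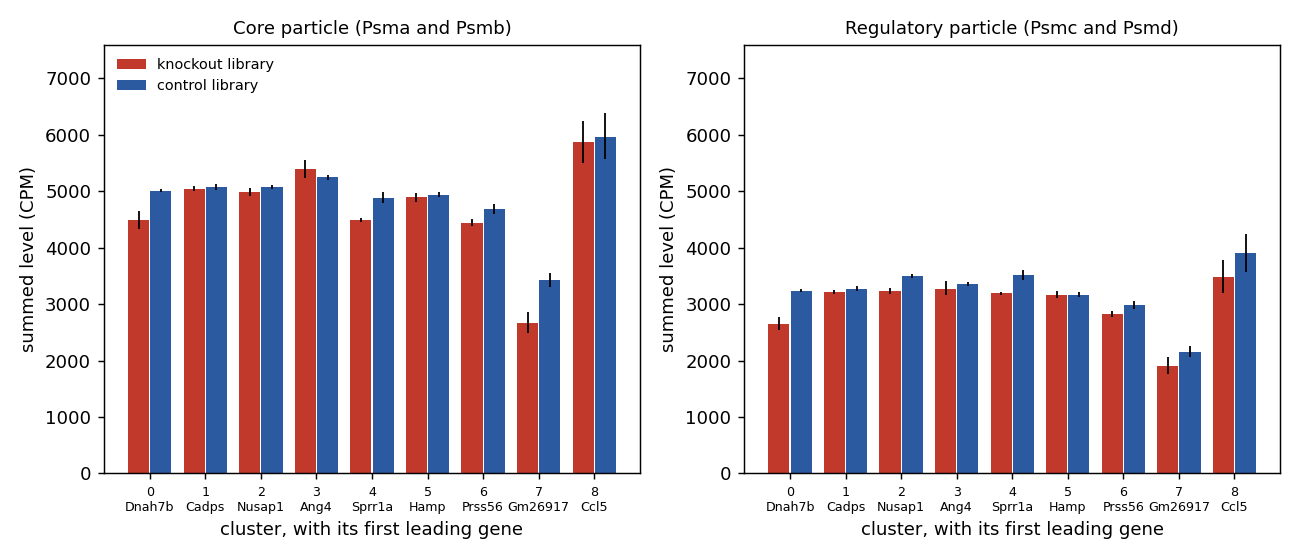
Summed level (CPM) of core particle genes (left) and regulatory particle genes (right) in each of 9 clusters, named by number and first leading gene, with knockout in red and control in blue; bars are 95% counting intervals. Cluster 7, of shallow cells, is the lowest for both particles in both libraries, at 4575 and 5586 CPM over all proteasome genes in knockout and control cells.

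Cycling-like cells had slightly more proteasome transcripts than the other cells of their library. In the knockout library the sum was 8218 CPM in cycling-like and 7824 CPM in the other cells, and in the control library 8577 and 8261 CPM. Cycling-like cells did not have the highest sum of any cluster. Cluster 1 had 8259 CPM and cluster 3 had 8666 CPM in knockout cells, and cluster 3 had 8609 CPM in control cells. Shallow cluster 8 was higher still in both libraries. The other cells also include shallow cluster 7, with 4575 CPM in knockout and 5586 CPM in control cells. The median log2 ratio of the 35 genes, cycling-like over other cells, was 0.09 in the knockout library, beside -0.03 over all measured genes, and 0.07 in the control library, beside 0.04. Above 0 lay 26 of 35 genes in each, beside 47.4% of measured genes in the knockout and 54.9% in the control library. Psmb10 was the lowest in both. It had 34.7 CPM in cycling-like and 45.8 CPM in other knockout cells (log2 ratio -0.40), and 23.7 and 43.7 CPM in the control library (-0.88). In the knockout library 2 genes were higher by 1.2-fold, beside 24.1% of measured genes, and 2 lower, beside 29.3%. In the control library 3 were higher, beside 27.1%, and 1 lower, beside 19.3%. Psmd9 was among the higher genes of both libraries (0.30 in the knockout and 0.29 in the control library), with Psma1 in the knockout library (0.29) and Psmd5 (0.40) and Psmc3 (0.36) in the control library.

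The same order held when cells were split into tertiles by the share of their UMIs in S phase markers. From the lowest to the highest tertile the sum was 7625, 8025 and 8239.6 CPM in knockout cells and 8074, 8266 and 8512 CPM in control cells. By G2 and M phase markers it was 7669, 7919.9 and 8174 CPM in knockout cells and 8214, 8306 and 8417 CPM in control cells. The ratio between the libraries lay between -0.10 and -0.04 on the log2 scale in every one of these tertiles. Knockout cells made up 732 of the lowest and 242 of the highest S phase tertile, against 638 and 1128 control cells.

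Colonocyte-like cells of the knockout library had 7685 CPM of proteasome transcripts, against 7976 CPM in its other cells; the median log2 ratio of the genes was -0.06, beside -0.07 over all measured genes, and 9 of 35 lay above 0, beside 42.1%. The 57 colonocyte-like control cells had 8401 CPM, against 8328 CPM in the other control cells, with 18 of 35 above 0, beside 38%. In the knockout library 1 gene was higher by 1.2-fold, beside 22% of measured genes, and 0 were lower, beside 28.9%. In the control library 2 were higher, beside 19.8%, and 1 lower, beside 36.5%. Psmd8 had the highest ratio of the 35 genes in both libraries. It had 525 CPM in colonocyte-like and 396 CPM in other knockout cells (0.41, 0.36 to 0.45), and 620.1 CPM in colonocyte-like and 407 CPM in other control cells (0.61, 0.52 to 0.69).

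**Figure D5:**
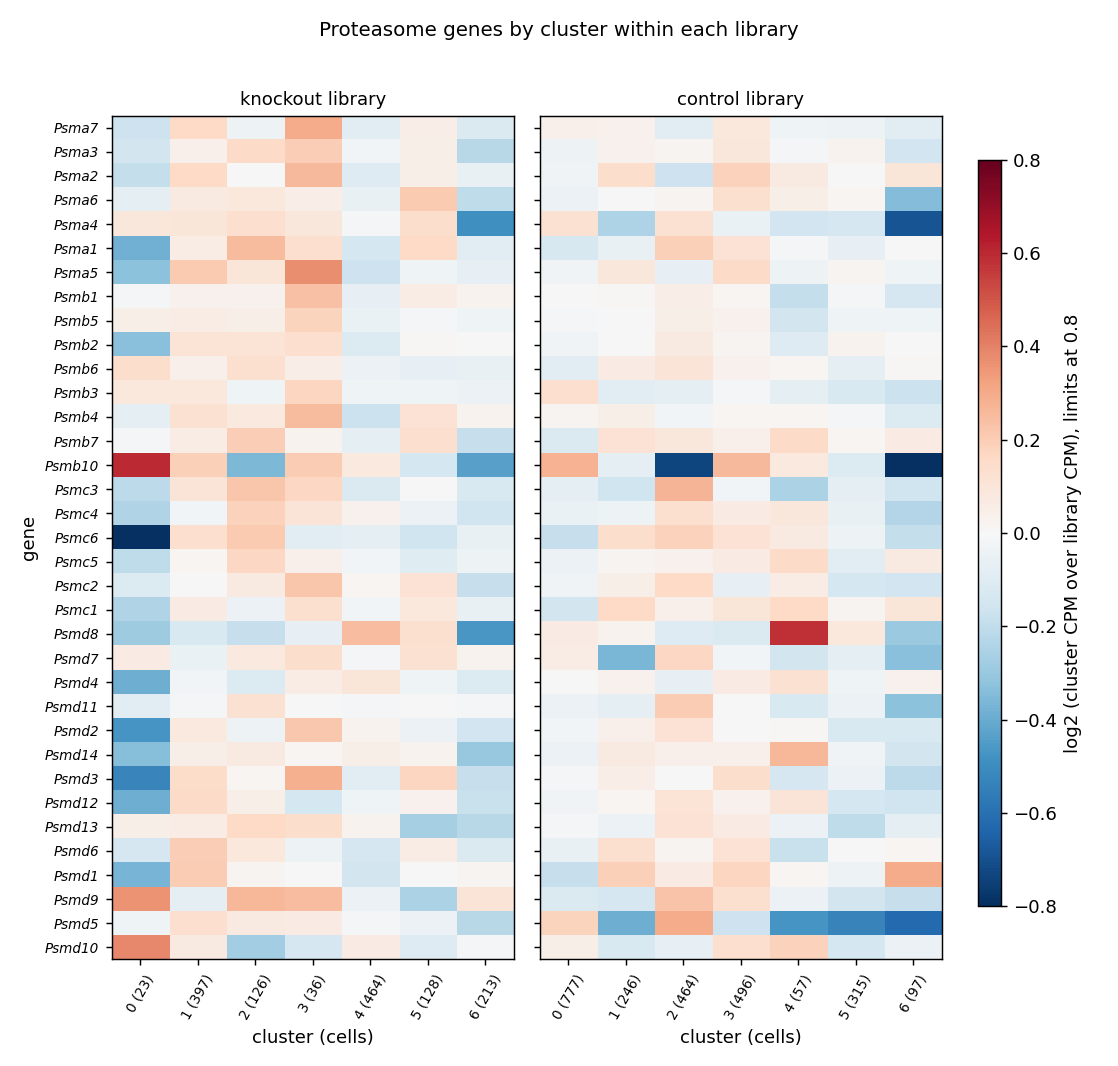
Log2 of the level of each proteasome gene in a cluster over its level in the whole library (colour, limits at 0.8), for clusters 0 to 6 with their cell numbers in the knockout (left) and control library (right). Most cells of the map are pale; Psmb10 is low in the cycling-like cluster 2 and high in cluster 0, Psmd8 is high in cluster 4, and Psmd5 is raised in clusters 0 and 2 of the control library.

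The clusters with 100 or more cells of usual depth were 1, 2, 4, 5 and 6 in the knockout library and 0, 1, 2, 3 and 5 in the control library. Over these unlike sets the median gene varied by 1.27-fold between its highest and lowest cluster in the knockout library and by 1.18-fold in the control library; over the 3 clusters that both sets hold it varied by 1.11-fold and 1.13-fold. The widest span was that of Psmd8 in the knockout library, 525 CPM in cluster 4 and 321 CPM in cluster 6 (led by Prss56 and Pnliprp1), and that of Psmb10 in the control library, 47.7 CPM in cluster 0 (led by Dnah7b and Isx) and 23.7 CPM in cluster 2. The narrowest were Psmb5 (1.08-fold) in the knockout and Psmb1 (1.04-fold) in the control library. Cluster 7, whose cells had a median of 4033 UMIs in knockout and 3696 in control cells, had 4575 and 5586 CPM of proteasome transcripts, the lowest sum of the 9 clusters in both libraries.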

How the data were processed

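Libraries were prepared with the 10x 3′ kit (version 2 chemistry), per the labels' protocols. The authors deposited raw UMI counts, for which the file headers name Cell Ranger 3.1.0 and the submitters' processing notes name mm10. No source used here gives the annotation, the strand setting or the treatment of tags that match several copies. Positions, lengths and overlapping genes came from GENCODE release M21 (30934 identifiers matched) and promoters from RefSeq.

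Barcodes were kept from 1000 genes and 2000 UMIs upwards if mitochondrial genes held no more than 20% of UMIs, which removed 579 of 2078 knockout and 931 of 3618 control barcodes. Scrublet's automatic threshold marked 3 and 12 cells, too few to use, so the highest scores were removed, 0.8% per 1000 cells (18 and 58). Raw counts were summed per library and scaled to CPM; measured genes had 10 or more CPM in 1 library. With 1 library per group the size thresholds of 1.5 and 1.2-fold are not tests. CPM intervals are exact Poisson and ratio intervals exact conditional binomial. The ratio intervals alone were tested on simulated data, which held counting error and no spread between cells or cultures. Clusters came from scanpy 1.11.5 (2000 variable genes without the proteasome genes, 30 components, 15 neighbours, Leiden resolution 0.8, leidenalg 0.10.2) on both libraries together, without integration. A cluster was named when 3 or more markers of a class were 2-fold up, its 10 leading genes held at least 2 of them, and no other class had as many. Trimmed mean factors came from edgeR 4.0.16, which was used for scaling alone.

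Named genes are all members by rule, with the extremes of each class, and lists of assembly, activator, regulator, ubiquitin, p97 and chaperonin genes. The members, lists and settings were chosen with earlier results of these data known. Alternatives covered cell filters, doublets, scaling, shared barcodes, cluster makeup, transcript length, level, thresholds, resolution and motif strand. The option of leaving out the shallow clusters, the one of leaving out Psmb10 and the chaperones, and clustering with the members kept were chosen after seeing the data.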

Additional observations from a re-analysis of the deposited data

How the results depend on the processing

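Of 100 alternative values, 82 stayed within the interval set around the reported one, or within 1.5 times of it, and 18 moved. For a sum this was its counting interval. For a median it ran from the median of the single genes' lower bounds to that of their upper bounds. That is not a counting interval of the median. Some values could not move, since with 0 genes past 1.5-fold none can pass 2-fold. The log2 ratio of the sum was -0.112 with trimmed mean factors, -0.0752 without ribosomal protein and mitochondrial genes and -0.0907 with every cell weighted equally. It was -0.0754 without shared barcodes, -0.0622 without colonocyte-like cells and -0.0734 with control cells weighted to the knockout's cluster shares. It stayed below 0 under all 12 alternatives for which it was computed, between -0.112 and -0.0622. It was not computed relative to genes of like length or of like CPM. Relative to genes of like length the median log2 ratio was 0.0878 over all members, 0.0433 over core and 0.0946 over regulatory genes, and relative to genes of like CPM 0.0388 over all, -0.0194 over core and 0.0675 over regulatory genes. With weighted control cells it was -0.0374 over core and -0.0855 over regulatory genes, beside -0.0152 over all measured genes. No gene passed 1.5-fold under any alternative at that threshold except that, with no minimum CPM, 1 was higher (Psmb11, from 1 UMI in each library); at 1.2-fold 5 were lower. The log2 ratio of the sum was -0.0429 in the cluster holding most cells of cluster 1 at resolution 0.4, 0.0319 in that of cluster 5 at resolution 1.2, and -0.0423 in the highest tertile by G2 and M phase share, set beside cluster 2. At resolution 1.2 clusters 1 and 2 had no counterpart with 100 cells in each library. On the gene's strand alone TGACNNNGC was in 3 and CCGGAAG in 5 proteasome promoters. The causes of these shifts were not tested. No paired analysis was possible because each group has 1 library, and for the same reason no replicate could be left out. With 1 library per group the spread between cultures is unknown, and no difference can be set against it.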
